A study of Saccharomyces cerevisiae BY4741 with 8 samples.

Results

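The members described here are 37 nuclear genes of *Saccharomyces cerevisiae* for the mitochondrial respiratory chain, without complex II, and for the ATP synthase. The deposited tables list 5782 genes. The rule takes the 37 members by gene identifier and uses no measured value, but earlier results of these data were known when they were chosen. The members comprise 9 genes of complex III, 9 of complex IV, 2 of cytochrome c, 14 of the ATP synthase and its inhibitor and 3 of the NADH dehydrogenases. RNA was sequenced from BY4741, a haploid laboratory strain whose genotype the study gives as MATa his3Δ1 leu2Δ met5Δ ura3Δ, and from BY4741(*yrr1*Δ), the same strain with *YRR1* replaced by a KanMX cassette. *YRR1* encodes a zinc-finger activator of multidrug resistance genes. Both strains carried the same auxotrophies, and whether the deletion strain was a single clone is not given in the sources used here. Precultures were diluted to an OD600 of 0.2 in SD medium with 20 g/L glucose, alone or with 5 mM vanillin, grown at 30 °C and harvested in log phase at an OD600 of 1.6 to 2.0. The dose is that of the labels, while the headers of the authors' comparison tables write 6 mM. Each of the 4 groups (BY4741 in SD, BY4741(*yrr1*Δ) in SD, and each strain with vanillin) had 2 biological replicates, and the comparisons asked how vanillin and the loss of *YRR1* changed the transcriptome.

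In yeast, electrons from NADH enter the chain through single-subunit dehydrogenases rather than through a complex I, pass through ubiquinone to complex III, then through cytochrome c to complex IV, and the proton gradient drives the ATP synthase. In high glucose the cells ferment and most of these genes are repressed, and the Hap complex, which binds CCAAT boxes, and the heme-responsive activator Hap1 raise them when respiration is used. BY4741 descends from S288C, whose *HAP1* is disrupted by a transposon. Some positions in the chain have one gene for normal oxygen supply and another expressed when oxygen or heme is low, a switch in which the repressor Rox1 takes part, and some members also carry stress response elements, the sites of Msn2 and Msn4.

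The 8 libraries held 2195324 to 2453837 expected counts each, of which the members made up 0.409 to 0.603%. *YRR1* had 77 and 73 counts in BY4741 in SD and 82 and 100 with vanillin, against 2 and 1, and 0 and 1, in BY4741(*yrr1*Δ), so the libraries matched their strain labels. Of the members, 33 had enough counts to be tested among 5506 genes. *COX7*, *COX8*, *COX9* and *ATP18*, with coding lengths of 180 to 237 bases, had at most 10 counts in any library and were not tested. The counts give each gene's share of a library, so fewer cells with a transcript and less of it per cell cannot be told apart. The replicates of BY4741 in SD differed from each other over the members. Replicate 1 exceeded replicate 2 in 30 of the 33, by a median of 0.41 on the log2 scale, where the median over all genes was 0.00; in the other groups the members' median difference between replicates was -0.22, 0.15 and 0.10. For BY4741, the members' medians and calls are therefore also given without each of them. Levels are given below as counts scaled to a common library size (CPM, after TMM scaling), in the order replicate 1, replicate 2.

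Per unit length, the most abundant members in BY4741 in SD were *ATP2*, the catalytic beta subunit of the ATP synthase, at a mean of 712 FPKM (SD 95.6, n = 2), *QCR7*, a small subunit of complex III, at 641 FPKM (SD 167), and *ATP4*, subunit b of the peripheral stalk, at 615 FPKM (SD 111). The order between them did not exceed the spread of the replicates. Among the tested members the lowest were *NDE2* at 25.4 FPKM, *QCR10* at 39.2 FPKM and *CYC7* at 71.7 FPKM. With vanillin, *QCR7* had the highest mean in BY4741, at 825 FPKM, and *ATP2* the highest in BY4741(*yrr1*Δ), at 658 FPKM.

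Promoter sequences, which were not tested against any fold change, are shown for 8 of the members described below. They are *QCR6*, the member that rose with vanillin in BY4741, *TIM11*, the member that differed between the strains with vanillin, and the genes of the pairs *COX5A* and *COX5B*, *CYC1* and *CYC7*, and *NDE1* and *NDE2*, each pair serving the same position in the chain. Bases 250 to 101 before each start codon were read from the R64 genome (RefSeq), on the coding strand, and capitals mark CCAAT (the core bound by the Hap complex), AGGGG (the stress response element core) and ATTGTT (the Rox1 core), on either strand. The CC that ends the *NDE1* stretch opens a CCAAT that runs past it.
QCR6 (chrVI:224870-225019, minus strand): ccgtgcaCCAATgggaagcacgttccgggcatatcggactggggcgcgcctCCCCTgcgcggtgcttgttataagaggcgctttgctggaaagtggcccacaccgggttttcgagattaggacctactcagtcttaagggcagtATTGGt
TIM11 (chrIV:1112394-1112543, minus strand): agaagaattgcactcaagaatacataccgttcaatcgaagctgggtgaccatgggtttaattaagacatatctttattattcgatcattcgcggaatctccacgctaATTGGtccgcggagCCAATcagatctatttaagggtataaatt
COX5A (chrXIV:531475-531624, plus strand): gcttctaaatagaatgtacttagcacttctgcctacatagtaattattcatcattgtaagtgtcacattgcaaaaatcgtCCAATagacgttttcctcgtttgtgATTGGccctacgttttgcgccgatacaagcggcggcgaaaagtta
COX5B (chrIX:154972-155121, plus strand): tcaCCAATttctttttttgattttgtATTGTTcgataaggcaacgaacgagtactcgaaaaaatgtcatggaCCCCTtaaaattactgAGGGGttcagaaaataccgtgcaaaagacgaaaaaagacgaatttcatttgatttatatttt
CYC1 (chrX:526085-526234, plus strand): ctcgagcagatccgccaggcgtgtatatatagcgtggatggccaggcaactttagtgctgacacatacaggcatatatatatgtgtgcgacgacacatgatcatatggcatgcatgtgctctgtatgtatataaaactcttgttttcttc
CYC7 (chrV:80078-80227, minus strand): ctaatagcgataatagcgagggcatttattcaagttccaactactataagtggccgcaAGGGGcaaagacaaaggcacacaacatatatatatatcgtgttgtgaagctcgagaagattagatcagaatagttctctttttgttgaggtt
NDE1 (chrXIII:556576-556725, minus strand): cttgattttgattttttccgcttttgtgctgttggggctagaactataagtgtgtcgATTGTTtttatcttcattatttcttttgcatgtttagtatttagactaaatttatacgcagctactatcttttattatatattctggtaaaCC
NDE2 (chrIV:302961-303110, plus strand): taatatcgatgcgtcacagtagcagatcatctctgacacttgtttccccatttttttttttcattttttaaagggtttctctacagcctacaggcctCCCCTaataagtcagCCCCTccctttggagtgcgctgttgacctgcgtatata

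Over the full 250 bases before the start codon, CCAAT or its reverse complement ATTGG stood in 30 of the 37 members (81.1%), against 35.4% of 6007 nuclear coding genes. It was found in 13 of the 14 ATP synthase genes, 8 of the 9 complex IV genes and 7 of the 9 complex III genes, but in neither gene of cytochrome c and not in *NDE2*. AGGGG or CCCCT was found in 15 members (40.5%, against 18.8% of all), and ATTGTT or AACAAT in 17 (45.9%, against 28.7%). Each motif was searched separately, and matches could overlap. The letters are a description of these windows and show neither binding nor its absence.

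**Figure D1:**
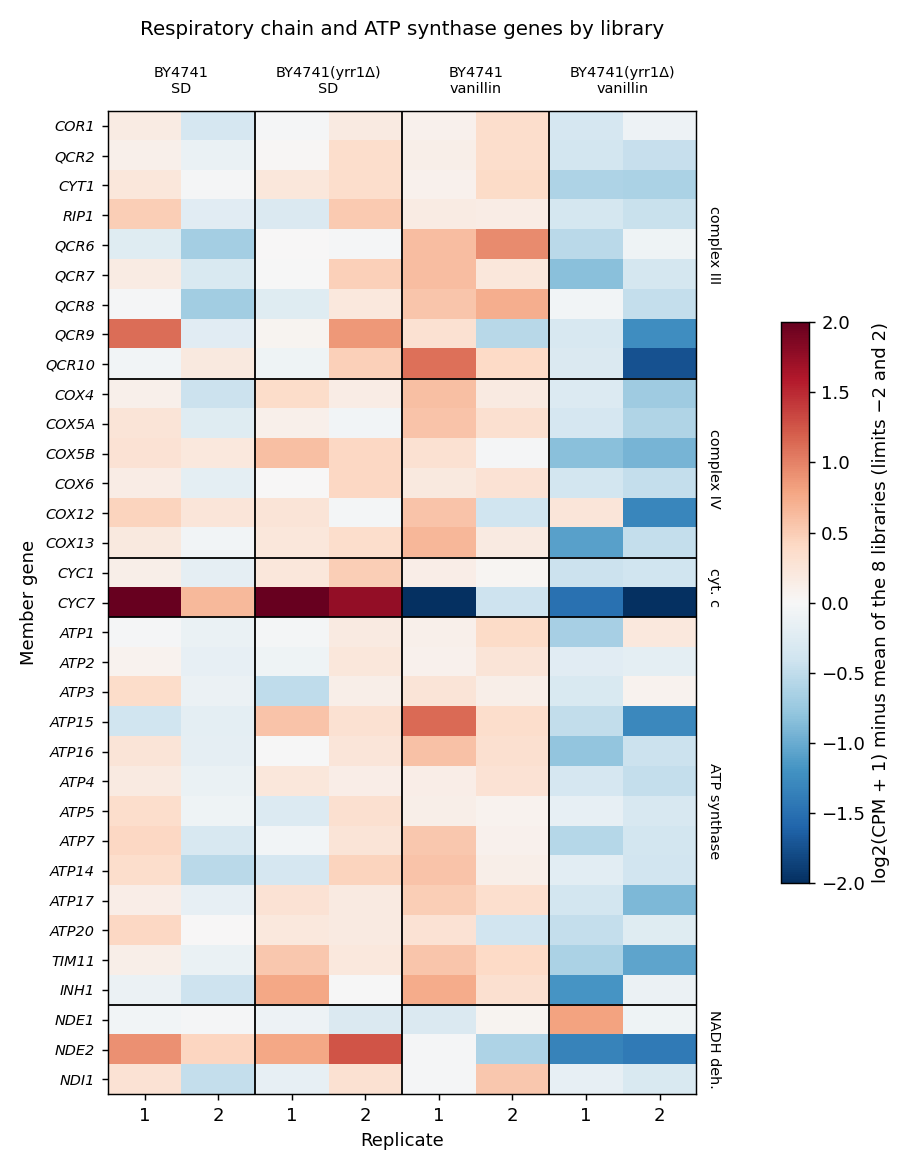
Level of the 33 tested members (rows, by complex) in the 8 libraries (columns, by group and replicate), as log2(CPM + 1) minus the gene's mean over the libraries, with colours limited at -2 and 2. Both BY4741(yrr1Δ) libraries with vanillin are below the other 6 libraries for 18 of the 33 members (54.5%), against 14.3% of all genes. CYC7 and NDE2 are high in the SD libraries of both strains.

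With vanillin, BY4741 had positive log2 fold changes for most members, and *QCR6*, which rose 2.37-fold, was the 1 that passed the test. Of the 33 members, 24 had a positive and 9 a negative log2 fold change, with a median of 0.27 where that of all genes was -0.02. At a false discovery rate (FDR, the p-value adjusted over all genes) of 0.05, edgeR called 1 member higher and 0 lower, beside 2.32% of all genes higher and 0.817% lower, and 3 members were higher and 2 lower at an unadjusted p under 0.05 (10.9 and 7.41% of all genes). The replicates of the media did not overlap for 15 members that were higher (27.5% of all genes) and 2 that were lower (26.6%). The median depended on the SD libraries, being 0.42 without BY4741 SD replicate 1 and 0.05 without replicate 2.

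In BY4741(*yrr1*Δ) most members had the opposite sign. Vanillin lowered *CYT1*, *COX5B*, *COX13*, *CYC7*, *TIM11* and *NDE2*, and 31 of the 33 members had a negative log2 fold change. The median was -0.61, against 0.01 for all genes. The 6 calls (of 33, beside 6.63% of all genes lower and 4.58% higher) were all downward, 16 members were lower (14.9% of all genes) and 0 higher (14.1%) at an unadjusted p under 0.05, and the replicates did not overlap for 25 members that were lower (26.7% of all genes) and 1 that was higher (28.4%). Without any 1 of the 8 libraries the median stayed between -0.77 and -0.60.

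In SD alone, no member passed the test between the strains. EdgeR called 0 members (beside 0.0182% of all genes lower and 0% higher), 0 had an unadjusted p under 0.05 (1.11 and 0.672% of all genes), and DESeq2 also called 0. The log2 differences, BY4741(*yrr1*Δ) against BY4741, ran from -0.31 ± 0.26 (SE) for *ATP3*, the gamma subunit, to 0.80 ± 0.42 for *ATP15*, the epsilon subunit, with a median of 0.19. The replicates did not overlap for 10 members that were higher (12.9% of all genes) and 1 that was lower (12.9%). The median was 0.40 without BY4741 SD replicate 1, 0.02 without replicate 2, and 0.04 without BY4741(*yrr1*Δ) SD replicate 2.

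When both strains were grown with vanillin, BY4741(*yrr1*Δ) stood below BY4741 in 32 of the 33 members, *NDE1* being the exception. The median log2 difference was -0.87 (-0.80 with *CYC7* set to a floor of 3 counts per library), against -0.01 for all genes. *TIM11* was the 1 member called (beside 0.581% of all genes lower and 0.0363% higher), 2.51-fold lower in BY4741(*yrr1*Δ). The DESeq2 Wald test called 10 lower (beside 3.08% of all genes), namely *CYT1*, *QCR6*, *QCR7*, *COX5A*, *COX5B*, *COX13*, *ATP15*, *ATP16*, *ATP17* and *TIM11*. With only the libraries compared, edgeR called 6 lower (beside 2.95%), namely *CYT1*, *QCR6*, *COX5A*, *COX5B*, *ATP16* and *TIM11*. At an unadjusted p under 0.05, 19 members were lower (13.2% of all genes) and 0 higher (9.75%), and the replicates did not overlap for 27 members that were lower (30.1% of all genes). This comparison shares its libraries with both vanillin comparisons and is no separate evidence.

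The difference between the strains' responses to vanillin was itself tested as an interaction. EdgeR called 0 members (beside 0.0908% of all genes lower and 0% higher), with a smallest FDR of 0.10, while 19 members had a lower response in BY4741(*yrr1*Δ) at an unadjusted p under 0.05 (11.8% of all genes) and 0 a higher one (8.68%), and the DESeq2 Wald test called 6 lower (beside 2.83% of all genes lower with that test), namely *QCR6*, *QCR7*, *COX5B*, *COX13*, *ATP15* and *TIM11*. Without BY4741(*yrr1*Δ) SD replicate 2, edgeR called 1, *TIM11* (beside 1.68% of all genes). The median interaction was -0.92, against 0.00 for all genes. For 13 members the replicates did not overlap and were higher with vanillin in BY4741 and lower with vanillin in BY4741(*yrr1*Δ), a pattern shown by 5.5% of all genes. Both BY4741(*yrr1*Δ) libraries with vanillin were below the other 6 libraries for 18 members (54.5%), against 14.3% of all genes, and both BY4741 libraries with vanillin were above the other 6 for 5 members (15.2%), against 8.06%. Under the study's own stricter criterion (FDR 0.001 or lower together with a change of 2-fold or more), 0 members were called in any of the 5 comparisons, beside 0.182% of all genes with vanillin in BY4741, 0.272% with vanillin in BY4741(*yrr1*Δ) and 0% in the other 3, so that a count of 0 is near the background.

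**Figure D2:**
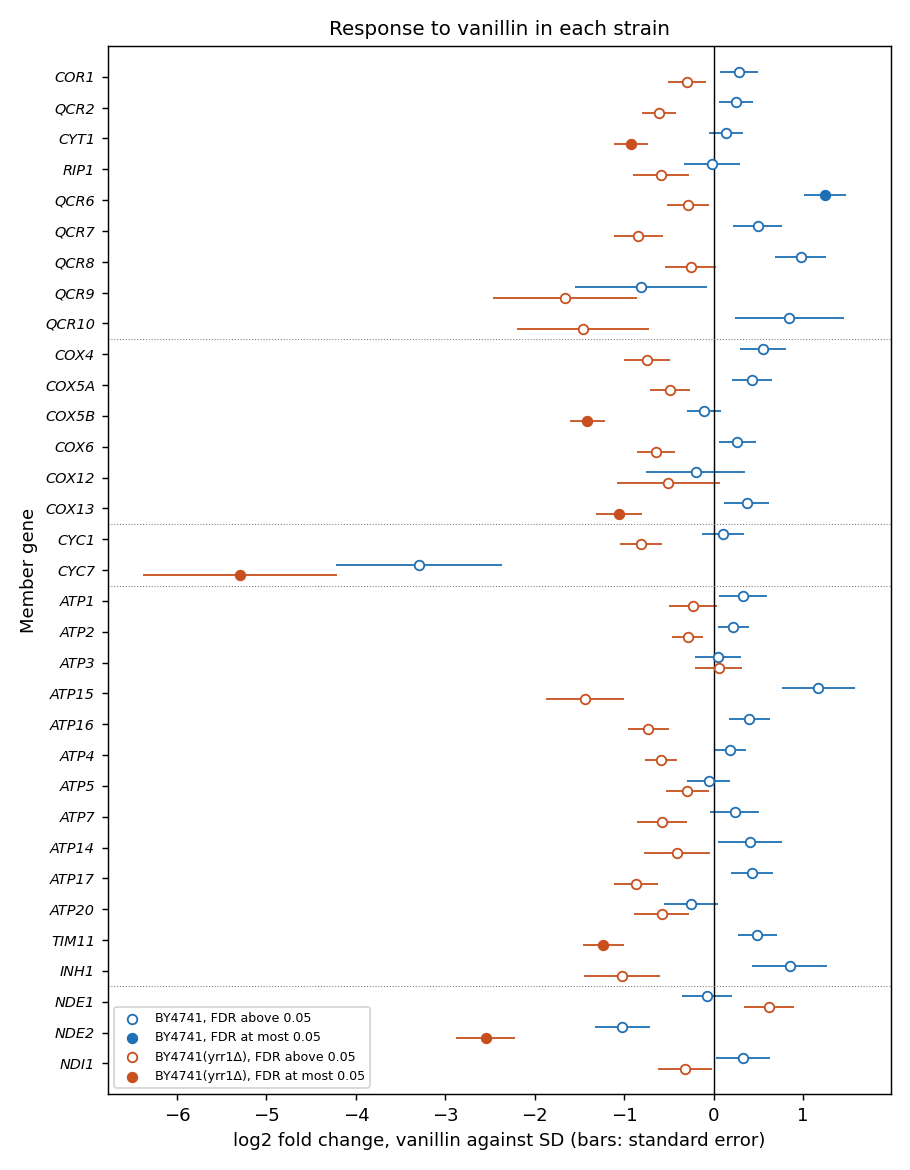
Log2 fold change with vanillin against SD for the 33 tested members in BY4741 (blue) and BY4741(yrr1Δ) (orange), with standard errors as bars and filled points at an FDR of at most 0.05. QCR6 is the filled point in BY4741, at 1.24, and CYT1, COX5B, COX13, CYC7, TIM11 and NDE2 are those in BY4741(yrr1Δ), at -0.92 to -5.29.

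Many members are short, and fold changes in these libraries moved with gene length. The median coding length was 456 bases for the tested members and 1284 bases for all genes tested. For BY4741(*yrr1*Δ) against BY4741 with vanillin, the median log2 difference of the other genes was -0.66 up to 250 bases, -0.50 above that and up to 400, -0.31 up to 600, -0.15 up to 1000, 0.02 up to 2000 and 0.25 for longer genes. The members in the first 5 length ranges had medians of -1.80 (3 genes), -1.02 (11), -0.92 (7), -0.57 (5) and -0.44 (7). The members' median was thus below that of the other genes of like length in every range they occupied, 31 of the 33 being below the median of their own range.

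For the response to vanillin in BY4741(*yrr1*Δ), the other genes' medians ran from -0.39 up to 250 bases to 0.25 above 2000, and 29 of the 33 members were below the median of their range. In BY4741 the trend ran the other way, from 0.49 to -0.10, and 10 of the 33 members were below their range's median. Across all 5506 genes the Spearman correlation of log2 fold change with length was -0.12 in BY4741, 0.36 in BY4741(*yrr1*Δ), -0.22 between the strains in SD and 0.42 between them with vanillin, a description over genes that share libraries. When each library's length trend was entered as an offset, the members' medians became 0.22 for vanillin in BY4741, -0.43 for vanillin in BY4741(*yrr1*Δ), 0.16 between the strains in SD, -0.57 between them with vanillin and -0.66 for the interaction. In that fit edgeR called 5 members lower with vanillin in BY4741(*yrr1*Δ) (beside 5.48% of all genes lower), *COX13* being lost, and called 0 between the strains with vanillin (beside 0.509% lower), *TIM11* being lost. The ratio of FPKM to counts implies that the authors' effective length was shorter than the coding length by 119 bases in BY4741(*yrr1*Δ) SD replicate 1, the lowest, to 148 in BY4741(*yrr1*Δ) vanillin replicate 2, the highest, and the part of this in the short genes' values was not tested beyond an offset for it, under which the medians were 0.26, -0.59, 0.14, -0.84 and -0.85 in the same order.

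**Figure D3:**
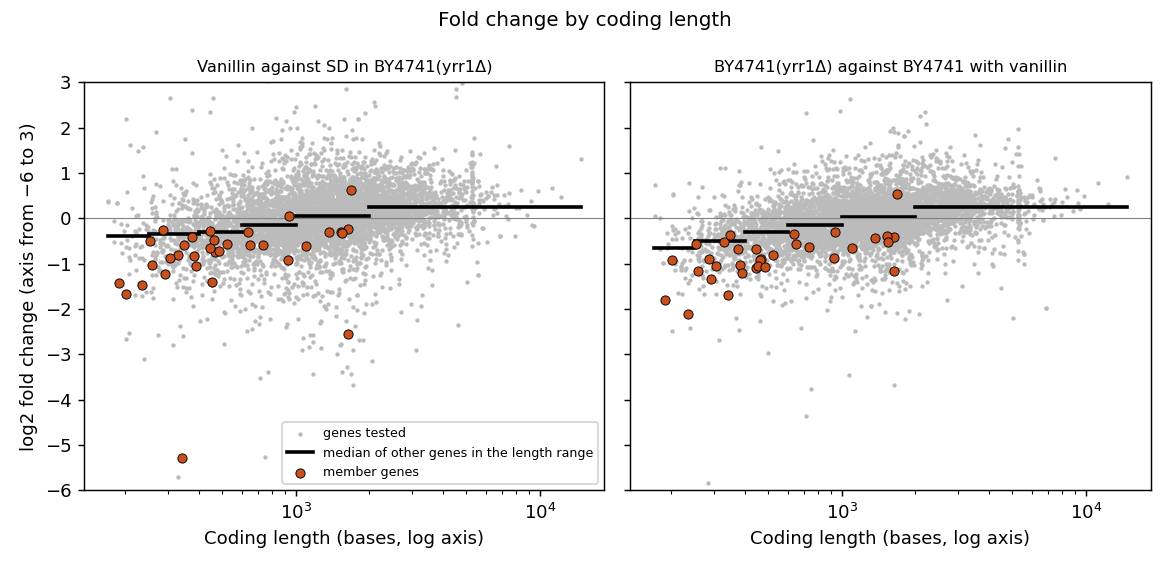
Log2 fold change against coding length (log axis) for genes tested (grey), the 33 tested members (orange) and the median of the other genes in each length range (black lines), for vanillin in BY4741(yrr1Δ) and for BY4741(yrr1Δ) against BY4741 with vanillin. Genes outside -6 to 3 are not drawn, and 29 and 31 of the 33 members respectively are below the line of their range.

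Of the NADH dehydrogenases, vanillin lowered *NDE2* 5.85-fold in BY4741(*yrr1*Δ), and *NDE1* and *NDI1* did not pass the test in any comparison. *NDE1* and *NDE2* encode the enzymes that take electrons from cytosolic NADH, and *NDI1* the one that takes them from NADH in the matrix. *NDE2* (YDL085W, R64 chrIV:303211-304848) had 43.6 and 30.7 CPM in BY4741 in SD, 22.2 and 14.5 with vanillin, 39.5 and 55.6 in BY4741(*yrr1*Δ) in SD, and 8.38 and 7.83 with vanillin. Both vanillin groups were below both SD groups without overlap, and the lowest values were those of BY4741(*yrr1*Δ). The fall in BY4741(*yrr1*Δ) (log2 fold change -2.55 ± 0.33, edgeR FDR = 0.0034) was called without each of the 8 libraries in turn and with the length offset, at -2.64. In BY4741 the log2 fold change was -1.02 ± 0.31 (FDR = 0.12), and the difference between the strains' responses, -1.53 ± 0.45, had an FDR of 0.14.

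*NDE1* (YMR145C, R64 chrXIII:554793-556475) had 269 and 272 CPM in BY4741 in SD, 227 and 288 with vanillin, 259 and 226 in BY4741(*yrr1*Δ) in SD, and 487 and 261 with vanillin. It was thus the tested member with the highest log2 fold change in BY4741(*yrr1*Δ), 0.62 ± 0.28 (FDR = 0.18), a value that rested on replicate 1, since replicate 2 was within the range of the BY4741 libraries and the log2 fold change was 0.10 without replicate 1 and 1.00 without replicate 2. *NDI1* had 151 and 88.3 CPM in BY4741 in SD, 121 and 179 with vanillin, 110 and 152 in BY4741(*yrr1*Δ) in SD, and 110 and 99.4 with vanillin, and its groups overlapped in each strain. The ratio of *NDE1* to *NDE2* in FPKM was 5.99 and 8.60 in BY4741 in SD and 6.38 and 3.95 in BY4741(*yrr1*Δ) in SD. With vanillin it was 9.94 and 19.4 in BY4741, against 56.4 and 32.3 in BY4741(*yrr1*Δ), above all SD libraries in both strains. The coding sequences of these genes were 64% identical, with no shared run longer than 11 bases. In the sequences above, *NDE2* carried AGGGG elements 153 and 138 bases before its start codon and no CCAAT, and *NDE1* carried ATTGTT 193 bases before it and no AGGGG. The CCAAT matches of *NDE1*, 102 and 9 bases before its start codon, are not shown whole there.

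Cytochrome c, the mobile carrier between complexes III and IV, is encoded by *CYC1*, the main form, and by *CYC7*, the form known from low oxygen and stress. *CYC7* (YEL039C, R64 chrV:79636-79977) had 50 and 16 counts in BY4741 in SD and 0 and 6 with vanillin, and 40 and 38 in BY4741(*yrr1*Δ) in SD and 2 and 0 with vanillin. All 4 libraries with vanillin were below all 4 SD libraries. From pooled counts the level was 10.1-fold lower with vanillin in BY4741 (95% exact binomial interval 4.42 to 28.6) and 44.3-fold lower in BY4741(*yrr1*Δ) (11.9 to 373), intervals that cover counting error only. The fitted log2 fold change was -5.29 ± 1.08 in BY4741(*yrr1*Δ), with an edgeR FDR of 0.018, and -3.29 ± 0.92 in BY4741, with an FDR of 0.097. These fitted values moved when 1 library was left out, to -8.33 without BY4741(*yrr1*Δ) vanillin replicate 1 and to -8.06 without BY4741 vanillin replicate 2, and without BY4741 SD replicates 1 and 2 the value in BY4741 was -2.29 and -3.89. The DESeq2 Wald test called *CYC7* lower in BY4741 as well (FDR = 0.0069). With the length offset and replicate block together, edgeR did not call it in BY4741(*yrr1*Δ). The call in BY4741(*yrr1*Δ) was lost with limma on log2(FPKM + 0.1) (FDR = 0.060), and without SD replicate 1 (FDR = 0.052), vanillin replicate 1 (0.066) or vanillin replicate 2 (0.10), and the interaction was -2.0 ± 1.75 (FDR = 0.55). Between the strains with vanillin, at 6 and 2 pooled counts, a ratio of 3.56 (0.637 to 36.1) was not distinguishable from no difference at this depth.

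*CYC1* (YJR048W, R64 chrX:526335-526664) had 26.8 and 21.65 CPM in BY4741 in SD, 26.9 and 25.2 with vanillin, 28.9 and 35.0 in BY4741(*yrr1*Δ) in SD, and 17.95 and 18.4 with vanillin. The BY4741(*yrr1*Δ) libraries with vanillin were below the other 6, and the log2 fold change with vanillin in that strain was -0.81 ± 0.23 (FDR = 0.057) and -0.44 with the length offset (FDR = 0.34), against 0.10 ± 0.23 (FDR = 0.84) in BY4741, a value whose sign depended on the scaling. The ratio of *CYC1* to *CYC7* in FPKM lay between 1.32 and 3.31 in the SD libraries, and was 9.54 in BY4741 vanillin replicate 2 and 23.8 in BY4741(*yrr1*Δ) vanillin replicate 1, with *CYC7* at 0 in the other two vanillin libraries. The coding sequences were 77% identical, with no shared run longer than 35 bases. Only a read no longer than that run could match both genes exactly within the coding sequence, and the read length is not given in the sources used here. *CYC7* carried an AGGGG element 192 bases before its start codon, and the window of *CYC1* held none of the 3 motifs.

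In complex IV, cytochrome c oxidase, the 6 tested nuclear subunits had log2 fold changes with vanillin of -1.41 to -0.49 in BY4741(*yrr1*Δ). There *COX5B* and *COX13* were called lower, beside 6.63% of all genes. In BY4741 the 6 ran from -0.20 to 0.55 and 0 were called, beside 2.32% of all genes higher and 0.817% lower, so that a count of 0 is near the background. *COX5B* (YIL111W, R64 chrIX:155222-155765), the subunit V form known from low oxygen, had 134 and 127 CPM in BY4741 in SD, 135 and 107 with vanillin, 167 and 146 in BY4741(*yrr1*Δ) in SD, and 60.6 and 56.7 with vanillin. Only the BY4741(*yrr1*Δ) libraries with vanillin stood apart, below the other 6. *COX5B* fell 2.67-fold in that strain (log2 fold change -1.41 ± 0.19, edgeR FDR = 0.0043), and was called without each library in turn and with the length offset, at -1.11. In BY4741 the log2 fold change was -0.11 ± 0.19 (FDR = 0.80), and the interaction was -1.31 ± 0.27 (FDR = 0.10).

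*COX5A* (YNL052W, R64 chrXIV:531725-532186), the subunit V form of aerobic cells, had 139 and 97.4 CPM in BY4741 in SD, 172 and 145 with vanillin, 124 and 111 in BY4741(*yrr1*Δ) in SD, and 91.4 and 76.3 with vanillin. Its log2 fold change with vanillin was 0.43 ± 0.22 in BY4741 (FDR = 0.34) and -0.49 ± 0.23 in BY4741(*yrr1*Δ) (FDR = 0.19), the replicates not overlapping in either strain. The value in BY4741 was 0.67 without SD replicate 1 and 0.19 without SD replicate 2, and that in BY4741(*yrr1*Δ) was -0.19 with the length offset. In FPKM the ratio of *COX5A* to *COX5B* was 1.02 and 0.75 in BY4741 in SD and 0.73 and 0.75 in BY4741(*yrr1*Δ) in SD. It was 1.25 and 1.33 with vanillin in BY4741, against 1.48 and 1.32 in BY4741(*yrr1*Δ), so that the 4 vanillin libraries were above the 4 SD libraries whichever the strain. The coding sequences were 67.5% identical with no shared run longer than 12 bases, and *COX5B* has 2 coding exons and a coding length of 456 bases, close to the 462 of *COX5A*. *COX5B* carried 2 AGGGG elements, 178 and 162 bases before its start codon, and *COX5A* carried none. Both carried CCAAT (at 247 and 72 bases in *COX5B*, 170 and 145 in *COX5A*) and ATTGTT (at 224 and 81, and at 95). Of the other members called lower with vanillin in BY4741(*yrr1*Δ), *CYC7* and *NDE2* held AGGGG, and *CYT1*, *COX13* and *TIM11* did not. A link between motif and change was not tested.

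**Figure D4:**
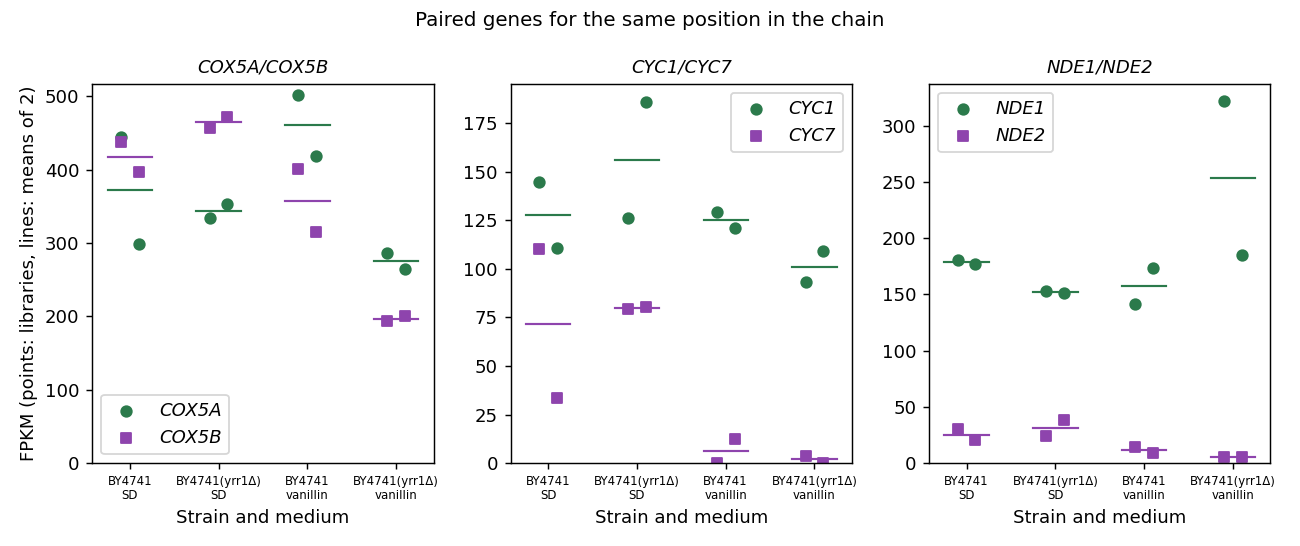
FPKM in each library (points) and group means of 2 libraries (lines) for COX5A and COX5B, CYC1 and CYC7, and NDE1 and NDE2, by strain and medium, with axes from 0. COX5A exceeds COX5B in the 4 libraries with vanillin, and CYC7 and NDE2 are lower with vanillin than in SD in both strains.

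*COX13* (YGL191W, R64 chrVII:144808-145197), a small peripheral subunit of complex IV, had 94.6 and 79.7 CPM in BY4741 in SD, 131 and 93.7 with vanillin, 97.2 and 106 in BY4741(*yrr1*Δ) in SD, and 38.3 and 59.1 with vanillin. The last 2 values were the lowest, and the fall in that strain was 2.09-fold (log2 fold change -1.06 ± 0.26, edgeR FDR = 0.032). The call did not hold with the length offset (-0.71, FDR = 0.14), with scaling by library size alone (FDR = 0.060), with limma (0.071 and 0.073), with only the libraries compared (0.067) or with the replicate block (0.062), nor without SD replicate 1 (FDR = 0.070), SD replicate 2 (0.096) or vanillin replicate 1 (0.15) of that strain, nor without either BY4741 vanillin library (0.053 and 0.054). *COX4*, the zinc-binding subunit, had 85.5 and 59.3 CPM in BY4741 in SD, 122 and 90.9 with vanillin, 103 and 88.9 in BY4741(*yrr1*Δ) in SD, and 65.8 and 48.5 with vanillin, and its log2 fold changes were 0.55 ± 0.25 (FDR = 0.29) and -0.75 ± 0.26 (FDR = 0.096). The first was 0.81 and 0.31 without BY4741 SD replicates 1 and 2, and the second was -0.45 with the length offset and was called with the replicate block (edgeR FDR = 0.048). EdgeR called *COX6* and *COX12* in no comparison, with log2 fold changes with vanillin in BY4741(*yrr1*Δ) of -0.65 ± 0.21 and -0.51 ± 0.58. The untested *COX7* had 1 to 4 counts in the 8 libraries, *COX9* had 0 to 4, and *COX8* had 8 to 10 in the SD libraries and 2 to 5 in those with vanillin.

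In complex III, the cytochrome bc1 complex, vanillin raised *QCR6* in BY4741 and lowered *CYT1* in BY4741(*yrr1*Δ). By sign, 7 of the 9 genes were higher in BY4741 and 9 of 9 were lower in BY4741(*yrr1*Δ). *QCR6* (YFR033C, R64 chrVI:224326-224769), the acidic hinge subunit that sits near cytochrome c1, had 99.7 and 73.2 CPM in BY4741 in SD, 182 and 228 with vanillin, 118 and 116 in BY4741(*yrr1*Δ) in SD, and 81.0 and 111 with vanillin. The BY4741 libraries with vanillin were above all the others. The rise in BY4741 was 2.37-fold (log2 fold change 1.24 ± 0.24, edgeR FDR = 0.027), and it lost the call without SD replicate 1 (1.45, FDR = 0.072), SD replicate 2 (1.04, FDR = 0.17), vanillin replicate 1 (1.40, FDR = 0.10) or vanillin replicate 2 (1.07, FDR = 0.24). In BY4741(*yrr1*Δ) the log2 fold change was -0.29 ± 0.24 (FDR = 0.45), which turned to 0.03 with the length offset, and the interaction was -1.53 ± 0.33 (FDR = 0.10). The window of *QCR6* held CCAAT 243 and 106 bases and AGGGG 199 bases before the start codon.

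*CYT1* (YOR065W, R64 chrXV:447439-448368), cytochrome c1, had 147 and 124 CPM in BY4741 in SD, 134 and 165 with vanillin, 148 and 162 in BY4741(*yrr1*Δ) in SD, and 82.2 and 81.4 with vanillin. The BY4741(*yrr1*Δ) libraries with vanillin were below the other 6, and the fall in that strain was 1.89-fold (log2 fold change -0.92 ± 0.19, edgeR FDR = 0.019). It kept -0.84 with the length offset and stayed called, and lost the call with only the libraries compared (FDR = 0.059), with length offset and replicate block together (0.060), and without SD replicate 2 (FDR = 0.064), vanillin replicate 1 (0.080) or vanillin replicate 2 (0.085) of that strain. *QCR9* and *QCR10*, small subunits with coding lengths of 201 and 234 bases, each from 2 coding exons, had under 10 CPM in every library. *QCR9* had 8.20 and 2.60 CPM in BY4741 in SD, 4.25 and 1.86 with vanillin, 3.37 and 6.74 in BY4741(*yrr1*Δ) in SD, and 2.39 and 0.78 with vanillin. *QCR10* had 3.45 and 4.33, 8.96 and 5.13, 3.37 and 5.47, and 2.79 and 0.39 CPM in the same order. Their log2 fold changes with vanillin in BY4741(*yrr1*Δ), -1.66 ± 0.81 and -1.46 ± 0.74, were large with standard errors to match (FDR = 0.21 and 0.22). They ran from -2.63 to -1.06 and from -3.34 to -0.67 when 1 library was left out, the lowest without vanillin replicate 1 and the highest without SD replicate 2 and vanillin replicate 2 of that strain, respectively. *COR1* and *QCR2*, the core subunits, *RIP1*, the Rieske iron-sulfur protein, and *QCR7* and *QCR8* were called by edgeR in no comparison, with log2 fold changes with vanillin of -0.02 to 0.97 in BY4741 and -0.84 to -0.26 in BY4741(*yrr1*Δ). The DESeq2 Wald test called *QCR7* lower with vanillin in BY4741(*yrr1*Δ), between the strains with vanillin and for the interaction.

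Of the ATP synthase, 11 of the 13 tested genes had positive log2 fold changes with vanillin in BY4741 (median 0.33) and 12 had negative ones in BY4741(*yrr1*Δ) (median -0.58). The first median was 0.56 without BY4741 SD replicate 1 and 0.11 without replicate 2, and the second was -0.37 with the length offset. With vanillin in BY4741(*yrr1*Δ), the single edgeR call in the reported fit was *TIM11* (beside 6.63% of all genes lower). This gene encodes subunit e, a membrane subunit needed for dimers of the enzyme. *TIM11* (YDR322C-A, R64 chrIV:1112003-1112293) had 74.7 and 62.8 CPM in BY4741 in SD, 102 and 90.9 with vanillin, 101 and 80.02 in BY4741(*yrr1*Δ) in SD, and 44.3 and 32.5 with vanillin. The last group was below the other 6 libraries. The fall with vanillin in BY4741(*yrr1*Δ) was 2.35-fold (log2 fold change -1.23 ± 0.23, edgeR FDR = 0.011) and stayed called at -0.80 with the length offset, but not with offset and replicate block together (FDR = 0.059), nor without SD replicate 1 (0.051) or vanillin replicate 2 (0.072) of that strain. Between the strains with vanillin it was -1.33 ± 0.23 (FDR = 0.043), a call lost with the length offset (-0.84, FDR = 0.10), with scaling by library size alone, with the replicate block, and without any 1 of the 4 vanillin libraries or either BY4741 SD library (FDR 0.053 to 0.28). *ATP20*, subunit g, which acts with subunit e in the dimer, had a log2 fold change of -0.58 ± 0.30 (FDR = 0.24) in BY4741(*yrr1*Δ). The window of *TIM11* held CCAAT 143 and 129 bases before the start codon.

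*ATP15*, the epsilon subunit of the central stalk and the shortest tested member at 189 bases, had 7.34 and 8.66 CPM in BY4741 in SD, 23.1 and 13.1 with vanillin, 15.4 and 12.6 in BY4741(*yrr1*Δ) in SD, and 6.78 and 3.52 with vanillin. The vanillin and SD libraries did not overlap in either strain, in opposite directions, and the interaction of -2.60 ± 0.60 was the lowest of the members without passing the test (FDR = 0.11), and it was -1.72 with the length offset. Limma called *ATP15* lower with vanillin in BY4741(*yrr1*Δ) at both pseudocounts (FDR = 0.023 and 0.024), where edgeR gave -1.43 with an FDR of 0.067. *INH1*, the inhibitor that binds the enzyme when the gradient collapses, had 15.1 and 12.1 CPM in BY4741 in SD, 28.3 and 21.0 with vanillin, 28.9 and 16.4 in BY4741(*yrr1*Δ) in SD, and 6.78 and 15.3 with vanillin. Its log2 fold changes were 0.85 ± 0.42 (FDR = 0.31) and -1.02 ± 0.43 (FDR = 0.15). The second was -0.51 with the length offset, -0.59 without SD replicate 1, -0.56 without vanillin replicate 1 and -1.72 without vanillin replicate 2 of that strain. *ATP1* and *ATP2*, the alpha and beta subunits of the catalytic head, at 1638 and 1536 bases, had log2 fold changes of 0.33 ± 0.26 and 0.22 ± 0.18 in BY4741, against -0.23 ± 0.26 and -0.29 ± 0.18 in BY4741(*yrr1*Δ). *ATP3*, the gamma subunit, was at 0.05 ± 0.26 and 0.06 ± 0.26. The remaining tested genes, *ATP16* of the central stalk and *ATP4*, *ATP5*, *ATP7*, *ATP14* and *ATP17* of the stator and membrane part, were called in no comparison by edgeR in the reported fit, with log2 fold changes of -0.06 to 0.43 in BY4741 and -0.87 to -0.29 in BY4741(*yrr1*Δ). Between the strains with vanillin, the DESeq2 Wald test called *ATP16* and *ATP17* lower, and edgeR called *ATP16* with only the libraries compared. With vanillin in BY4741(*yrr1*Δ), edgeR called *ATP17* lower with DESeq2 size factors and with the replicate block. The untested *ATP18* had 1 to 7 counts.

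Other genes of respiration, taken as lists by function, are given by their calls with vanillin in BY4741(*yrr1*Δ), where 6.63% of all genes were called lower. Of the 8 genes of complex II and other electron donors, 8 were lower by sign and 4 were called lower, namely *CYB2*, the lactate dehydrogenase that feeds cytochrome c (-2.01 ± 0.32), *GUT2*, the mitochondrial glycerol phosphate dehydrogenase (-1.88 ± 0.35), *MCR1* (-1.54 ± 0.25) and *DLD1* (-0.86 ± 0.20). Of 10 ubiquinone synthesis genes, 10 were lower by sign and *CAT5*, *COQ4* and *COQ5* were called, at -0.90 to -1.33. Of 30 tested assembly factors of complexes III and IV, 25 were lower by sign and 5 were called (*CBP4*, *COX16*, *MSS51*, *PET191* and *SCO1*, at -1.004 to -1.53), and of 14 factors of the ATP synthase, 11 were lower by sign and *STF1* and *STF2*, which act with the inhibitor, were called, at -1.54 and -1.62. In these lists 0 genes were called in the opposite direction (beside 4.58% of all genes). In BY4741 0 genes of the lists were called in either direction, beside 2.32% of all genes higher and 0.817% lower. The values of these lists, and of those in the next paragraph, are not adjusted for gene length, and the part of the length trend in them was not tested.

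Of 10 TCA cycle genes, 8 were lower by sign and 3 were called lower. The 67 mitochondrial ribosomal protein genes had a median of -0.42, with 65 lower by sign and 6 called lower, and the 129 tested cytosolic ribosomal protein genes had a median of -0.10, with 85 lower by sign and 1 called lower. The 7 mitochondrially encoded subunits of these complexes were looked up by gene identifier, and the deposited tables of the libraries held none of them. Of the transcription and heme regulators, edgeR called 0 of 10 in any comparison. The shares of all genes called in one direction were 0 to 6.63%. At an unadjusted p under 0.05, 1 of 10 was higher with vanillin in each strain. The share of all genes passing that limit upward was 10.9% for BY4741 and 14.1% for the deletion strain. A count of 1 of 10 is thus near the background. *HAP4*, the activating subunit of the Hap complex, had 78.2 and 65.8 CPM in BY4741 in SD, 92.9 and 117 with vanillin, 76.5 and 68.6 in BY4741(*yrr1*Δ) in SD, and 170 and 86.9 with vanillin. Its libraries with vanillin were above those in SD in both strains, with log2 fold changes of 0.55 ± 0.30 (edgeR FDR = 0.37) and 0.82 ± 0.30 (FDR = 0.12). *HAP1*, *HAP2*, *HAP3*, *HAP5* and *ROX1* had log2 fold changes of -0.04 to 0.54 with vanillin in BY4741 and -0.42 to 0.51 in BY4741(*yrr1*Δ).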

How the data were processed

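Total RNA was extracted from 8 cultures, poly(A) RNA was isolated and fragmented, and libraries were sequenced on an Illumina HiSeq instrument. The authors deposited, for each library, a table of expected counts, FPKM and length per gene. The submitters' processing notes name genome build R64, and the aligner and counter are not given in the sources used here. The deposited expected counts were rounded to whole numbers. The deposited FPKM values were used for levels between genes and in one alternative test. The deposited length column equals the coding length of the members in the annotation. The authors' comparison tables, which hold log2 ratios, group mean FPKM and a probability per gene, and their table of FPKM over all samples were not used, and 0 per-sample columns of other series were present.

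Counts of all genes were filtered with filterByExpr, scaled by TMM and fitted with edgeR 4.0.16 (quasi-likelihood test, R 4.3.3) in 1 model of the 4 groups, with Benjamini-Hochberg adjustment over 5506 genes and a call at an FDR of at most 0.05. Values are given as a log2 fold change ± its standard error, computed from the test statistic. CPM were TMM-scaled. Totals of 2195324 to 2453837 counts per library make a count of 10 uncertain by about its square root, and this precision limits genes under 10 CPM. With 2 replicates per group, 2 groups cannot be compared by an exact test below the threshold, so no such test was run. Named genes were members called in any comparison, the 3 with the largest change per complex, and both genes of 3 pairs. The members and lists were chosen with earlier results of these data known. Alternatives used DESeq2 1.42.0, limma 3.58.1 on log2(FPKM + 1) and log2(FPKM + 0.1), other scalings and filters, a replicate block, each library left out in turn, and per-library loess trends of log2 CPM on log2 length (span 0.5) as offsets. The scripts were tested on simulated counts. Motifs and identities were read from the R64 genome with Biopython 1.88.

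Replicate numbers were not used to pair libraries, since the correlation of replicate differences between groups was -0.58 for the SD groups and -0.09 to 0.18 otherwise.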

Additional observations from a re-analysis of the deposited data

How the results depend on the processing

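The members' median kept its sign under every alternative in each of the 5 comparisons. The replicate numbers are shared by all groups, and with the replicate number as a block edgeR called 0 members with vanillin in BY4741 (1.8% of all genes). In BY4741(*yrr1*Δ) it called 7 (*COX4* and *ATP17* gained, *COX13* lost, and 4.58% of all genes lower). It called 0 between the strains in SD (0.0182% of all genes), 0 between them with vanillin (0.218%) and 0 for the interaction (0%). With the SD numbers crossed, a choice made after seeing the data, 0 members were called between the strains in SD. That fit called 1.38% of all genes, against 0.0182% in the reported fit. Members called with vanillin in BY4741 were 1 in the reported fit and 2 with the DESeq2 Wald test (3.14 and 5.27% of all genes). They were 0 with the length offset and replicate block together (1.8%), 0 with the offset on the RefSeq gene span (3.54%) and 0 under the study's limits (0.182%). Called with vanillin in BY4741(*yrr1*Δ) were 6, against 2 with the length offset and replicate block (3.34% of all genes lower, against 6.63%) and 0 under the study's limits (0.272%). Between the strains with vanillin 1 was called, against 10 with the DESeq2 Wald test, 6 with only the libraries compared and 2 with limma at either pseudocount. All genes called lower were 3.08, 2.95, 0.745 and 0.726% in those fits, against 0.581% in the reported fit, so that calls rose over all genes too. The count was 0 with library size alone (0.436% of all genes lower), 0 with any length trend offset (0.2 to 0.509%) and 0 under the study's limits (0%). For the interaction 0 were called, against 6 with the DESeq2 Wald test (2.83% of all genes lower, against 0.0908%). Calls with a library left out are not counted here, since such fits leave 1 library in a group.

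The median with vanillin in BY4741, 0.27, ranged from 0.053 to 0.42 when leaving out a library. That in BY4741(*yrr1*Δ), -0.61, was -0.43 with the length offset and block and -0.40 with the offset on gene span, and -0.77 to -0.60 when leaving out a library. Between the strains in SD it was 0.024 to 0.40 when leaving out a library. Between them with vanillin, -0.87 became -0.69 with limma on log2(FPKM + 1), -0.57 with the length offset, -0.56 with offset and block and -0.54 on gene span, and -0.88 to -0.70 when leaving out a library. The interaction median, -0.92, was -0.70 with library size alone, -0.61 and -0.63 with limma at pseudocounts of 1 and 0.1, -0.66 with the length offset, -0.68 with offset and block and -0.62 on gene span, and -1.20 to -0.75 when leaving out a library.

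Signs turned for *CYC1* with vanillin in BY4741 (-0.0052 with library size alone, -0.019 with limma at either pseudocount, -0.071 with the length offset, -0.076 with offset and block, -0.096 on gene span) and *QCR6* with vanillin in BY4741(*yrr1*Δ) (0.027, 0.018 and 0.069 in those last 3). When leaving out a library, the log2 fold change with vanillin in BY4741 ran from -0.019 to 0.28 for *CYT1*, -1.51 to 0.20 for *QCR9*, -0.28 to 0.047 for *COX5B*, -0.042 to 0.23 for *CYC1*, -0.26 to 0.090 for *NDE1* and -0.013 to 0.73 for *NDI1*. That of *CYC7* ran from -4.73 to 3.06 between the strains with vanillin and from -5.03 to 2.76 for the interaction. The cause of these shifts was not tested. Depth limits *COX7*, *COX8*, *COX9*, *ATP18* and *CYC7*, and 2 replicates per group limit every test.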
